A study of Mus musculus with 4 samples.

Results

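Ccr7, Fscn1, Ccl22, Ccl17, Il4i1, Socs2, Cacnb3 and Apol7c are 8 genes known from dendritic cells that have matured and left a tissue. Their levels were read in single leukocytes of the healthy mouse liver, as the unique molecular identifiers (UMIs, 1 per captured transcript) of each gene, for these 8 of the 32285 genes in the files. In 1593 kept cells, 10 cells held UMIs of at least 3 of the 8 genes, and 9 of these were dendritic cells by their markers. These 10 are called multi-gene cells. They held 86.5% to 97.7% of the UMIs of Fscn1, Ccl22, Ccl17, Cacnb3 and Apol7c, whereas most UMIs of Socs2 were in T cells and those of Ccr7 were shared between multi-gene cells (42.4%), B cells (33.9%) and T cells (21.7%).

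A dendritic cell that has taken up antigen matures, stops sampling its surroundings and travels through lymph vessels to the draining lymph node, where it shows the antigen to T cells. Ccr7 is the chemokine receptor that guides this migration, and Fscn1 encodes fascin, which bundles actin filaments in the long processes of mature dendritic cells. Ccl22 and Ccl17 are chemokines that bind CCR4, a receptor on several kinds of T cell, and Il4i1 encodes a secreted enzyme that breaks down amino acids. Socs2 encodes an inhibitor of cytokine signalling, Cacnb3 a beta subunit of voltage-gated calcium channels, and Apol7c a member of the apolipoprotein L family. Mature dendritic cells of liver and lymph carry this programme whether they began as cDC1, the type that presents antigen to CD8 T cells, or as cDC2, which mainly serves CD4 T cells.

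CD45+ cells, that is leukocytes, came from livers of healthy C57BL/6 mice carrying PA-GFP, a fluorescent protein that light switches on, and photoactivation was used in all 4 libraries. PV libraries hold cells of the zone around the portal vein and CV libraries cells of the zone around the central vein, with 2 libraries of each, and no age is given. The libraries are not stated to come from separate mice, so p-values measure only the spread between libraries, which may be technical.

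The libraries held 2741760 to 4373488 UMIs, and 333 and 512 cells were kept in PV replicates 1 and 2 and 372 and 376 in CV replicates 1 and 2, with median depths of 5369 to 6318 UMIs. Of 1939 distinct barcodes, 282 occurred in more than 1 library and were kept only in the library with at least 70% of their UMIs. Cell classes were gated by marker genes, which gave 132 dendritic cells (50, 47, 18 and 17 in the order above), of which 89 were cDC1 and 40 cDC2. The gate also gave 732 T cells, 153 B cells and 216 Kupffer cells, the resident macrophages of the liver, of which PV replicate 1 held 4. The 8 genes were no part of the gates.

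On the mouse build GRCm38 (GENCODE vM21 annotation), all 8 are protein-coding genes. Ccl22 (chr8:94745590-94751699, plus strand) and Ccl17 (chr8:94810453-94812036, plus strand) are neighbours 58.8 kb apart. Apol7c (chr15:77524852-77533316, minus strand) and Cacnb3 (chr15:98630840-98644529, plus strand) also share a chromosome. Fscn1 lies at chr5:142960343-142973185 on the plus strand, Socs2 at chr10:95385362-95417180 on the minus strand and Ccr7 at chr11:99144196-99155077 on the minus strand. Il4i1 (chr7:44816387-44840809, plus strand) is annotated as overlapping another gene, and Apol7c has close relatives in its family, so their UMIs may be split or shared with other genes and are uncertain to that extent.

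NF-kB is a transcription factor of dendritic cell maturation, and promoters are shown because genes of the NF-kB pathway were measured in the multi-gene cells below. RefSeq windows (GRCm38.p6) covering the 250 bases before the start were found for 6 of the 8 genes, with 2 starts for Cacnb3. Ccl22 and Ccl17 are shown as the chemokine neighbours, Fscn1 and Il4i1 as members with most of their UMIs in the multi-gene cells. Capitals mark matches to a loose form of the NF-kB site, GGG and CC with any 5 bases between, on either strand. RefSeq places the starts of Ccl22 and Fscn1 slightly inside the GENCODE gene, and the Ccl22 window is shown only up to the first GENCODE base. Each sequence runs 5′ to 3′ on the plus strand, which is the strand of the gene.
Ccl22, chr8:94745434-94745589: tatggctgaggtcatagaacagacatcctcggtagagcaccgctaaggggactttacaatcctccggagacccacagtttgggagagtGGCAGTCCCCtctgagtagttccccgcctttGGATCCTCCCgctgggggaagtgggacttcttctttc
Ccl17, chr8:94810203-94810452: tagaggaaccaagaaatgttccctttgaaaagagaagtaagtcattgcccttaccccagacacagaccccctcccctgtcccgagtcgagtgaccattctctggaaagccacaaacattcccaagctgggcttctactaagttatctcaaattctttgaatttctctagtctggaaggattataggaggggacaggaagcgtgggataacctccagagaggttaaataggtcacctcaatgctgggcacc
Fscn1, chr5:142960105-142960354: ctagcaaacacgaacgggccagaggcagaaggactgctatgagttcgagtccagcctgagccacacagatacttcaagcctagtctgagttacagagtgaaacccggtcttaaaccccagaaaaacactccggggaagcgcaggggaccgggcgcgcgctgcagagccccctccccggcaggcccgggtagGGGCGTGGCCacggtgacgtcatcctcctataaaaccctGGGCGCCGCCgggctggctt
Il4i1, chr7:44836038-44836287: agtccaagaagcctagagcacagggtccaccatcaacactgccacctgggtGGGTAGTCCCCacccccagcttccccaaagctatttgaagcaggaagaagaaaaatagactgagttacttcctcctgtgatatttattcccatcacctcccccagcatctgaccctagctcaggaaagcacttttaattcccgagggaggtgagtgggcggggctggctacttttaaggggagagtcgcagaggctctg
The match is loose: 45.8% of all 32851 RefSeq promoter windows of this length held at least 1. The Ccl22 window held 2 matches, 162 and 131 bases before the RefSeq start, which lies beyond the end of the part shown. The Ccl17 window held 0. The Fscn1 window held 2, 59 and 20 bases before the start, and the Il4i1 window held overlapping matches that begin 199 and 198 bases before a start inside the annotated gene. The Apol7c window held 1 and the Cacnb3 windows held 1 and 2. The interferon-response motif GAANNGAAA, in 6.31% of all windows, matched in none of the members' windows, and the PU.1 motif GAGGAAGT, in 2.44%, matched on the opposite strand of the Il4i1 window, away from the NF-kB matches. These are matches of letters and not binding sites.

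Most cells held none or 1 of the 8 genes. Among all 1593 cells, 982 held none, 571 held 1, 30 held 2 and 10 held 3 to 8. Of the 132 dendritic cells, 101 held none, 16 held 1, 6 held 2 and 9 held more. A cell of PV replicate 2 held all 8, and was gated as cDC1 with 2 cDC1 markers and 0 cDC2 markers.

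**Figure D1:**
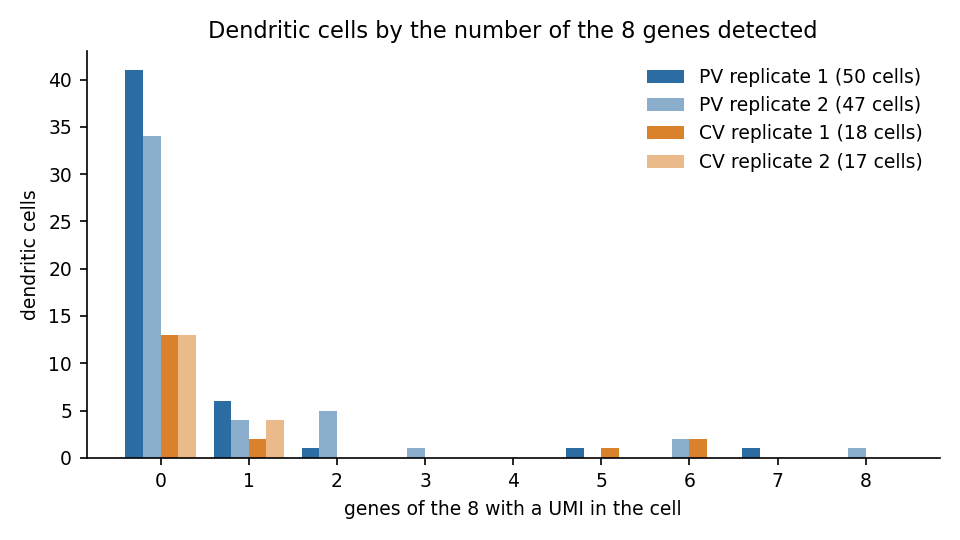
Number of dendritic cells (y axis) by how many of the 8 genes had a UMI in the cell (x axis), with 1 bar per library. Of 132 dendritic cells, 101 held none of the genes and 9 held at least 3, none of them in CV replicate 2.

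PV replicate 1 held 2 multi-gene cells, PV replicate 2 held 5, CV replicate 1 held 3 and CV replicate 2 held 0. In CV replicate 2, 0 of 17 dendritic cells allows a share of up to 17.6%, so their absence there was not a detectable difference at this depth. Multi-gene cells made up 4% (95% Wilson interval 1.10 to 13.5), 8.51% (3.36 to 19.9) and 16.7% (5.84 to 39.2) of the dendritic cells of the other 3 libraries. The median depth of the 9 multi-gene dendritic cells was 20075 UMIs, against 18422 for the other dendritic cells, and none of them was called a doublet.

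Each multi-gene cell had its own mixture. The first of PV replicate 1 held 418 UMIs of Ccl22, 57 of Fscn1, 54 of Ccr7, 52 of Il4i1, 10 of Cacnb3, 7 of Socs2 and 1 of Ccl17, together 599 of its 35224 UMIs. It alone carried 64.1% of all Ccl22 UMIs in the data. The first of PV replicate 2 was a cell of the receptor and of fascin, with 94 UMIs of Ccr7, 33 of Il4i1 and 22 of Fscn1, but 4 of Ccl22. Ccr7 and Ccl22 were both high in the second, with 50 and 68 UMIs.

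Ccl17 was high in 1 cell. The third cell of PV replicate 2 held 100 Ccl17 UMIs with 12 of Il4i1, 11 of Ccl22, 9 of Socs2, 4 of Fscn1 and 1 of Ccr7, and was gated as a dendritic cell of neither type. The fourth held 79 UMIs of Ccr7, 12 of Cacnb3 and 7 of Ccl22 and none of the other 5 genes.

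A pair of cells lacked both Ccr7 and Fscn1, the genes of migration and cell shape, and held the 2 highest Apol7c counts among the 10. The second cell of PV replicate 1 held 76 UMIs of Apol7c, 12 of Socs2, 7 each of Ccl22 and Ccl17 and 1 of Cacnb3, with 12 UMIs of the cDC1 marker Clec9a and 92 of Irf8. The fifth cell of PV replicate 2 held 8 of Ccl22, 7 of Apol7c, 3 of Il4i1 and 1 of Socs2. It is the multi-gene cell outside the dendritic gate, since it held UMIs of 4 Kupffer cell markers beside 5 dendritic ones.

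In CV replicate 1, the first cell held 111 UMIs of Ccl22, 12 of Il4i1, 9 of Socs2, 6 of Ccr7 and 2 of Cacnb3. The second held 57 of Fscn1, 43 of Ccr7, 9 of Il4i1, 8 of Cacnb3, 6 of Socs2 and 2 of Ccl22. The third, the shallowest with 6477 UMIs, held 8 of Ccr7, 6 of Il4i1, 5 of Cacnb3, 3 of Fscn1 and 1 each of Ccl22 and Socs2. Ccl22 was thus above 60 UMIs in 3 of the 10 cells and at 11 or below in the other 7.

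**Figure D2:**
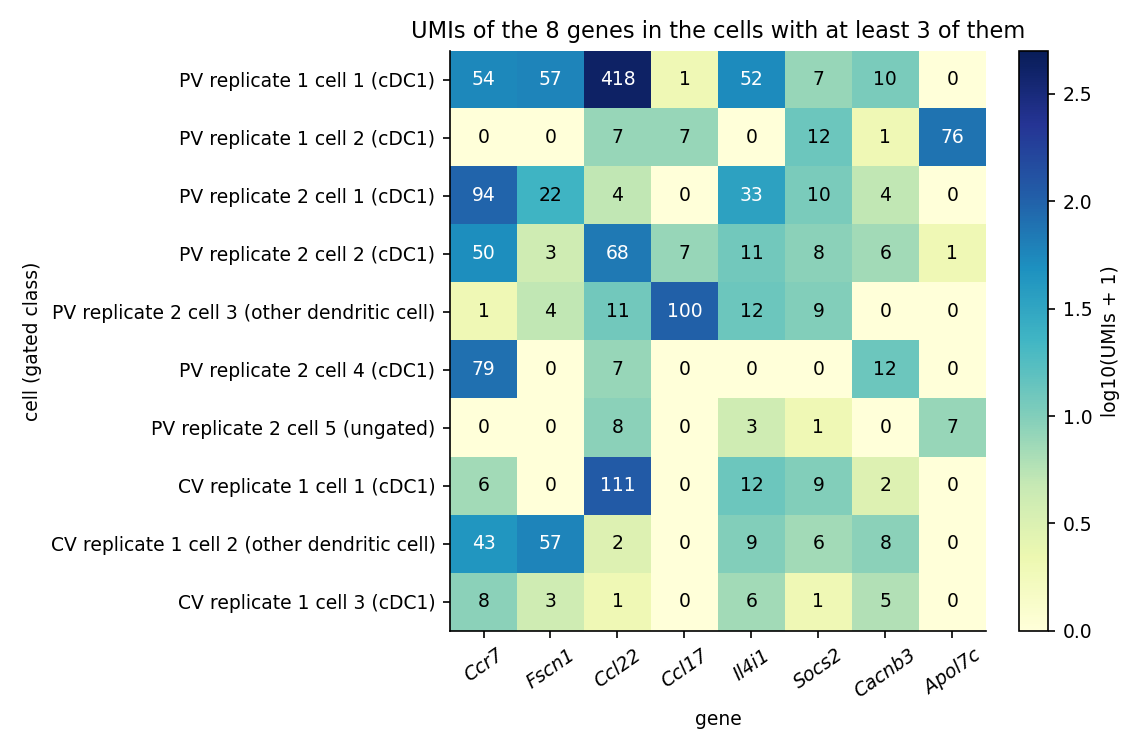
UMIs of the 8 genes (columns) in each of the 10 cells with at least 3 of them (rows, with the gated class), coloured by log10(UMIs + 1). Ccl22 was detected in 10 of 10 cells, Socs2 in 9, and Ccr7, Il4i1 and Cacnb3 in 8, whereas Ccl17 and Apol7c were each high in 1 cell.

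The barcodes of 9 of the 10 cells also occurred in other libraries, with 2.25% to 6.74% of their UMIs in each. The member UMIs of these copies were 0% to 9.52% of the barcode's member UMIs. All 13 left-out barcodes with at least 3 of the genes carried the barcode of a multi-gene cell that was kept elsewhere.

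The chemokine Ccl22 was nearly confined to multi-gene cells, which held 637 of its 652 UMIs (97.7%). In dendritic cells it was at 440, 125, 332 and 0 CPM (the gene's UMIs scaled to the UMI total of the class in that library) in PV replicates 1 and 2 and CV replicates 1 and 2, and without the multi-gene cells at 4.41, 11.3, 0 and 0 CPM. In cDC1 it was at 276 CPM ± 240 (SD, n = 4) with 0 in CV replicate 2, and so overlapped cDC2 at 8.15 CPM ± 4.12 (SD, n = 2). T cells held 2 UMIs of Ccl22 and B and Kupffer cells 0. With each cell thinned to 2500 UMIs, 5.34% of dendritic cells and 0.141% of T cells had a Ccl22 UMI, against 9.85% and 0.273% unthinned, at median depths of 18592 and 6164 UMIs.

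Its neighbour Ccl17 was detected in 13 cells with 133 UMIs, of which 1 cell held 75.2%. In dendritic cells it was at 11.3, 138, 0 and 13.0 CPM in the same order of libraries, and without the multi-gene cells at 3.31, 1.41, 0 and 13.0 CPM. Single cDC2 held it in 3 libraries, with 5 UMIs in all, and 2 cDC2 held Ccl22, with 4 UMIs in all. In Kupffer cells Ccl17 was seen in 4 cells with at most 2 UMIs a cell, and Ccl22 in none. Of 13 dendritic cells with Ccl22 and 8 with Ccl17, 4 held both.

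Fascin, Fscn1, had 146 of 154 UMIs (94.8%) in multi-gene cells. Dendritic cells held 59.5, 42.2, 175 and 3.26 CPM in the same order of libraries, with CV replicate 2 the lowest. No T, B, NK or Kupffer cell held any, which for 732 T cells allows a share of up to 0.410%. Sinusoidal endothelial cells, of which PV replicate 2 held 12, held 2 UMIs in 2 cells, which is under the floor of 3 counts, so no order against other classes is read from them.

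The receptor Ccr7 was highest in B cells, at 433 CPM ± 173 (SD, n = 4), with 269, 499, 646 and 318 CPM in PV replicates 1 and 2 and CV replicates 1 and 2. cDC1 followed at 68.9, 451, 48.7 and 0 CPM, overlapping both B cells and T cells. T cells were at 17.0, 29.6, 37.8 and 61.3 CPM, all below B cells. In dendritic cells the UMIs were concentrated in few cells: 8 multi-gene cells held 335 of the 338 UMIs of all dendritic cells, and 2 of 123 others had any. In B cells they were spread, with 58.2% of 153 cells holding 1 to 14 UMIs, whereas 1.39% of Kupffer cells held any.

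Il4i1 was spread more widely than Ccl22, with 70.4% of 196 UMIs in multi-gene cells and 8.67% in B cells. Dendritic cells held 59.5, 85.8, 84.4 and 3.26 CPM in PV replicates 1 and 2 and CV replicates 1 and 2. Without the multi-gene cells 6.62, 15.5, 6.84 and 3.26 CPM remained. B cells were at 70.1, 21.7, 15.2 and 23.4 CPM, and cDC1 at 66.3, 88.3, 66.0 and 0, so the classes overlapped. Of the cells with exactly 2 of the 8 genes, 8 of 30 were B cells with Ccr7 and Il4i1. In cDC1 against cDC2, Il4i1 was the only member that passed the filter on low counts, with a log2 difference of 0.91 ± 0.55 (edgeR adjusted p = 0.437), where 8.98% of 3030 genes were called, 3.53% as higher and 5.45% as lower in cDC1.

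Socs2 was a T cell gene by its counts. T cells held 731 of its 897 UMIs (81.5%) and were at 153, 152, 145 and 147 CPM, a mean of 149 ± 3.66 (SD, n = 4). NK cells or ILC1 followed at 75.5 CPM ± 33.4 (SD, n = 3) without overlap with T cells, and cDC1 were at 24.2, 38.1, 34.8 and 0 CPM. B cells were near 0, with 1 UMI. Within dendritic cells, however, its 63 UMIs lay in 9 cells, of which 8 were multi-gene cells and the other held 1 UMI.

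Cacnb3 had 48 of 52 UMIs (92.3%) in multi-gene cells, 8 of which held 1 to 12. Dendritic cells were at 12.3, 28.2, 43.6 and 0 CPM in the same order. cDC2, B and NK cells held none. Apol7c had 76 of its 97 UMIs in 1 cell, and was detected in 3 cells with 85 UMIs and 2 cells with 2 UMIs in the dendritic cells of PV replicates 1 and 2. In both CV libraries, 0 of 35 dendritic cells held it, which allows a share of up to 8.57%. Of the 5 dendritic cells with Apol7c, 1 held Ccr7, whereas 7 of the 9 with Cacnb3 did.

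**Figure D3:**
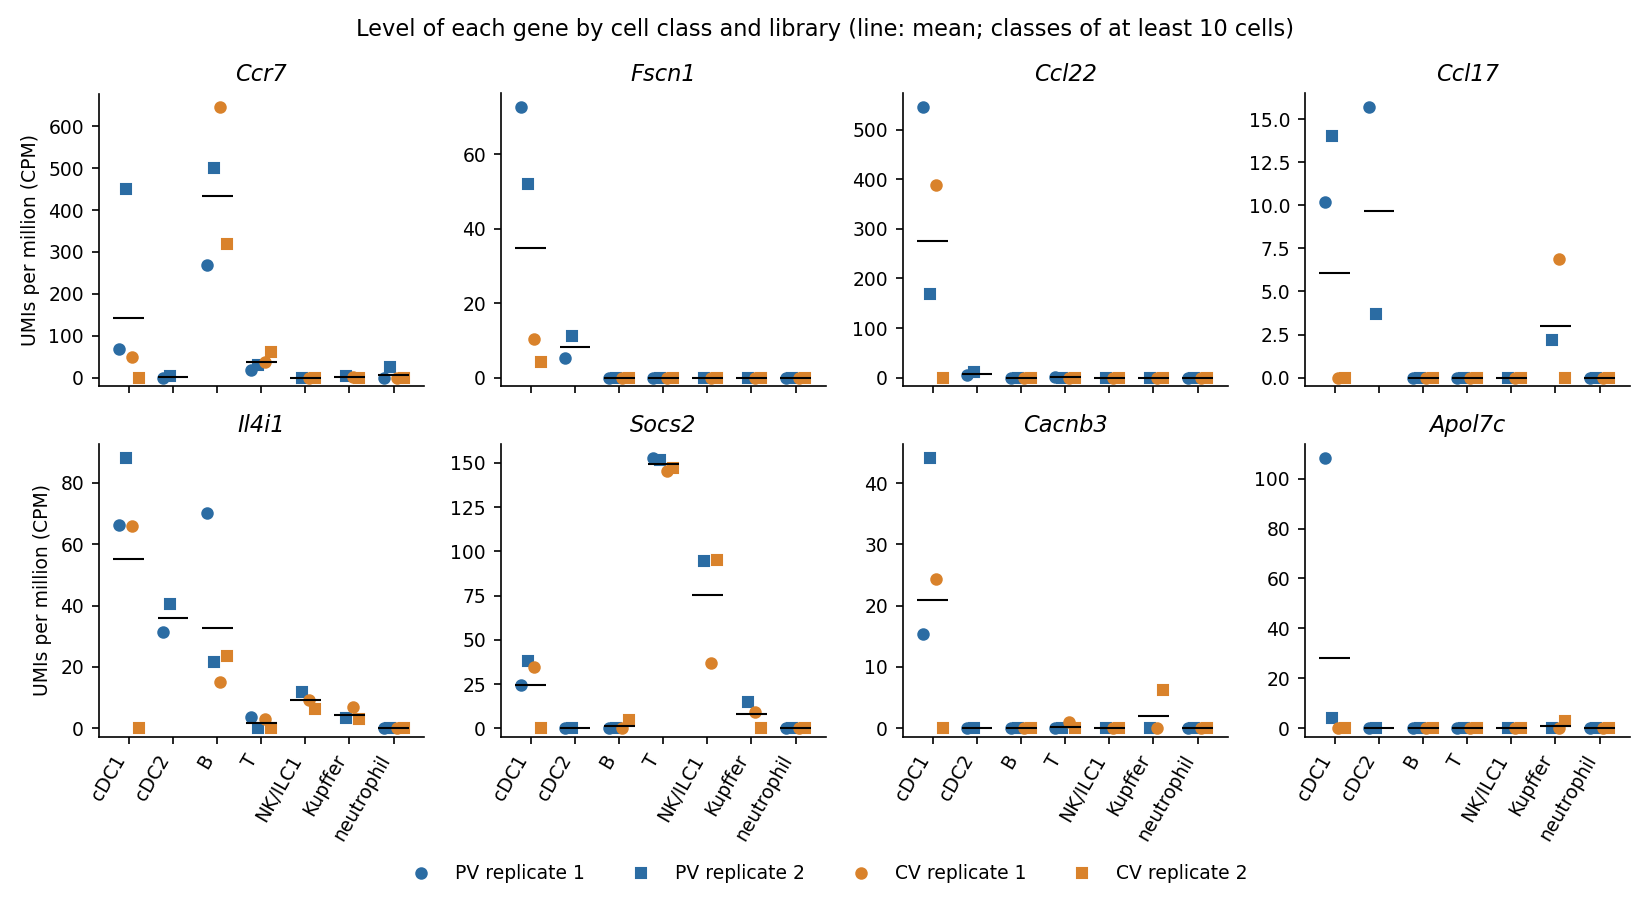
Level of each gene in CPM (y axis, linear, its own scale in each panel) by cell class (x axis), with 1 point per library with at least 10 cells of the class and a line at their mean. Ccr7 was highest in B cells (433 CPM) and Socs2 in T cells (145 to 153 CPM), and the points of CV replicate 2 in cDC1 were at 0 for 7 of the 8 genes.

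Other genes of mature dendritic cells were higher in the summed counts of the multi-gene cells, including the cytokine subunit Il12b, the chemokine Ccl5 and the NF-kB subunit Relb. The members themselves chose these cells and were left out of the test, which compared summed counts of multi-gene with other dendritic cells within PV replicate 2 (4 against 43 cells) and CV replicate 1 (3 against 15), the libraries with at least 3 cells of both kinds. Of 2431 genes, 23.7% were called, 12% as higher and 11.7% as lower in multi-gene cells (edgeR adjusted p under 0.05, library as a block, CPM taken without the members' own UMIs). From a list of 40 other genes of mature dendritic cells, 28 passed the filter on low counts, 24 rose and 0 fell. Their median log2 difference was 4.15, against -0.19 over all genes tested. This list and those below were chosen with earlier results of these data known. The cells were picked by genes of the same programme, so the counts for this list are a description. With 2 libraries, 1 residual degree of freedom was left, and DESeq2 called 120 genes where edgeR called 576, 19 of them on this list.

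Il12b, a subunit of interleukin 12 that primes T cells, was at 1138 CPM in the multi-gene cells of PV replicate 2 and 12.7 CPM in the others, and at 2282 against 6.84 CPM in CV replicate 1. Its log2 difference was 7.04 ± 0.72 (SE, edgeR adjusted p = 2.85e-19). The sums of multi-gene cells stood far above those of the others in both libraries. In PV replicate 2 the single multi-gene dendritic cells held 27, 55, 0 and 0 Il12b UMIs. Ccl5, a chemokine for T cells and NK cells, was at 4814 against 11.3 CPM and at 5714 against 30.8 CPM, a log2 difference of 8.04 ± 0.86 (edgeR adjusted p = 1.01e-17). Neither gene was present in each of them: 7 of 9 multi-gene dendritic cells held Ccl5 and 7 of 9 held Il12b. The first cell of PV replicate 2 held 336 of the 347 Ccl5 UMIs of the multi-gene dendritic cells of that library. The Ccl17-high cell held 0 UMIs of both.

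Relb was detected in 9 of 9 multi-gene dendritic cells and in 15.9% of other cDC1. It was at 458 and 507 CPM, against 21.2 and 13.7 CPM in the other dendritic cells, a log2 difference of 4.61 ± 0.63. Cd63, a tetraspanin of late endosomes, Gadd45b, a stress-response gene, Samsn1, an adaptor protein, Anxa3, an annexin, and the membrane protein gene Tmem123 rose with log2 differences of 4.87, 4.84, 4.61, 6.07 and 4.41. Cd63 did not pass in DESeq2, and in CV replicate 1 its UMIs in multi-gene cells all lay in the second cell, which held 42. Nudt17 and the adenylate cyclase Adcy6 had 20 and 22 UMIs in multi-gene cells and 0 in the others of these libraries, so they were at least 54.1-fold and 59.5-fold higher, taking 3 counts over the group as the floor. The 4 tested list genes that did not pass were Icosl, Birc3, Crip1 and Cd86, with log2 differences of 0.66 to 1.51. They were named after their values were seen.

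**Figure D4:**
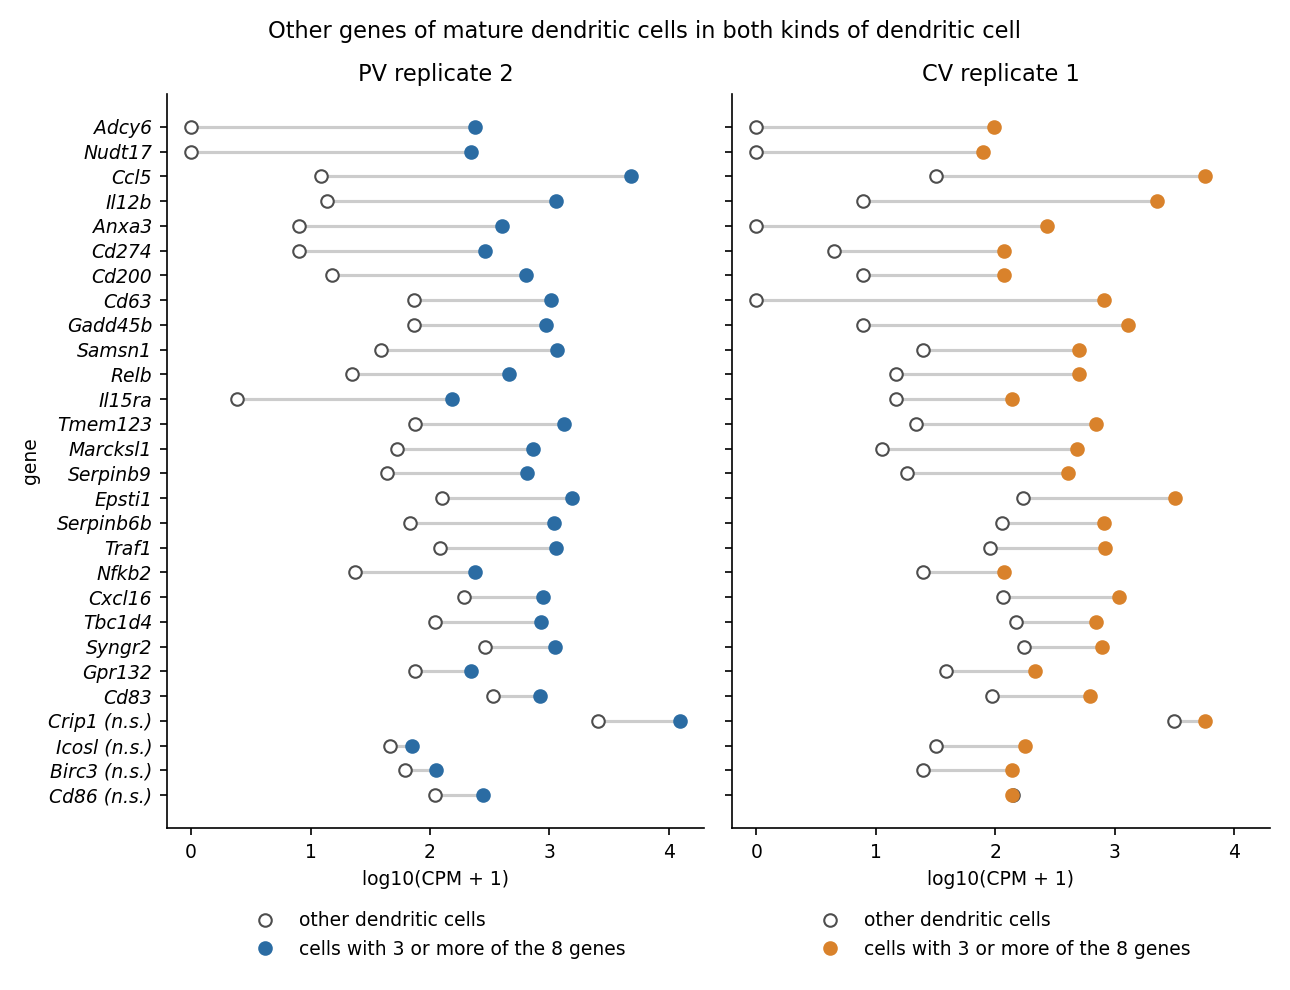
Level, as log10(CPM + 1), of the 28 tested genes from the list of other mature dendritic cell genes in the dendritic cells with at least 3 of the 8 genes (filled) and in the other dendritic cells (open), for PV replicate 2 (left) and CV replicate 1 (right); n.s. marks the 4 genes with an edgeR adjusted p of 0.05 or more. The filled points lie to the right of the open points for each of the other 24 genes in both libraries, with Il12b at 1138 against 12.7 CPM in PV replicate 2.

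Of 24 NF-kB pathway genes, 16 were tested, 10 rose and 0 fell, with a median log2 difference of 1.83. Besides Relb, Traf1, an adaptor of TNF receptors, Tnip1, an NF-kB inhibitor, and Map3k14, the kinase NIK of the alternative pathway, rose by 3.16 ± 0.55, 3.15 ± 0.67 and 2.91 ± 0.65 on the log2 scale (SE). In DESeq2, Tnip1 and Map3k14 did not pass. Relb, Traf1, Nfkb2 and Birc3 are on both lists.

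Genes of antigen uptake moved both ways. Of 21, 9 were tested, 2 rose and 5 fell. Ly75, the uptake receptor DEC-205, rose by 4.11 ± 0.69 and Axl, a receptor for dying cells, by 2.82 ± 0.66 on the log2 scale. Lyz2, lysozyme, fell by 3.56 on the log2 scale, from 648 and 476 CPM in the other dendritic cells to 27.8 and 78.0 CPM. Fcer1g, the signalling chain of Fc receptors, fell by 2.75, but by 0.48 with other cDC1 alone as the reference, where it no longer passed. It also did not pass with cells of at least 2 of the 8 genes (-0.52), on thinned cells (-1.70) or in DESeq2. Axl did not pass in DESeq2 or with no filter on low counts.

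Of 24 actin and cell shape genes, which share the role of Fscn1, 20 were tested, 2 rose and 3 fell, which is near the 23.7% called over all genes. Myo1g, a myosin of blood cells, rose by 3.11 ± 0.57 and Rac2, a GTPase of blood cells, and Cotl1, an actin-binding protein, fell by 2.77 and 2.67 on the log2 scale. Coro1a, coronin, fell by 1.87. In DESeq2, Rac2, Cotl1 and Coro1a did not pass, nor did Coro1a on thinned cells, at -1.08.

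The families of single members gave little to test. Among 15 genes of the SOCS family and of STAT5 targets, 3 were tested and Stat5a, which signals from growth factor receptors, rose by 2.46 ± 0.66 on the log2 scale, but did not pass with no filter on low counts (2.26 ± 0.98). The values of Jak2 and Pim1 were 0.82 ± 0.61 and -0.32 ± 0.56. Of 14 calcium channel subunits, Cacna1s, a pore-forming subunit, was the 1 tested and rose by 3.02 ± 0.67, which did not pass in DESeq2. Ahr, a receptor for tryptophan products, was the 1 tested of 15 genes of amino acid catabolism, at -1.59 ± 0.84 (edgeR adjusted p = 0.164). Of 12 apolipoprotein L genes, none passed the filter. Of 11 ligand and receptor genes around CCR7 and CCR4, Cxcr4 and Ccrl2 were tested and did not pass, at -1.35 ± 0.84 and 1.12 ± 0.72.

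Outside the lists, the largest rise was that of Glipr2, with 99 and 19 UMIs in the multi-gene cells of PV replicate 2 and CV replicate 1 and 0 in the other dendritic cells, at least 319-fold. It did not pass in DESeq2. Lad1, an anchoring filament protein, had 19 UMIs against 0. Mreg, Tnfrsf4, the receptor OX40, Tm4sf5 and Snn followed, with log2 differences of 7.76, 7.06, 6.87 and 6.81. All were higher in both libraries.

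The largest falls were of genes with 0 UMIs in the multi-gene cells of both libraries. Ccr2, the receptor that brings blood precursors into tissue, had 195 and 148 UMIs in the other dendritic cells and was at least 14.1-fold lower. Stmn1 and Ccnd1, genes of dividing cells, were at least 11.4-fold and 12.3-fold lower, and Tlr3, a sensor of double-stranded RNA and a cDC1 marker, at least 9.33-fold. Cd209a, a cDC2 marker, Ccl3, Tm6sf1, Rab7b, Ctla2b and Sla were at least 7.40-fold to 13.4-fold lower. In DESeq2, Ccr2, Cd209a, Stmn1 and Ccnd1 did not pass. With cells of at least 2 of the 8 genes, Ccnd1, Rab7b and Cd209a did not pass either, at log2 differences of -1.34, -1.57 and -0.35. Cd209a was at 1086 CPM in cDC2 and 2.41 CPM in other cDC1, so its level in the reference was that of cDC2.

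By their gates 7 of the 9 multi-gene dendritic cells were cDC1 and 2 of neither type, and the 10 listed cDC1 markers were below their level in other cDC1 to differing degrees. Xcr1 was detected in 4 of 9, against 93.9% of the other cDC1, and Naaa in 4 of 9, against 98.8%. Itgae was at 0 in all 9, and Clec9a was detected in 5 of 9, against 100% of the other cDC1. The sums of other markers were nearer to cDC1: Ifi205 was detected in 7 of 9, at 395 CPM against 473 in other cDC1 and 20.3 in cDC2. However, 59 of its 76 UMIs lay in the second cell of PV replicate 1. Cadm1 was also detected in 7 of 9. Irf8, a transcription factor of cDC1, was detected in 6 of 9, at 769 CPM against 1424 in other cDC1 and 11.1 in cDC2. The second cell of PV replicate 1 held 92 of these 148 Irf8 UMIs. Batf3, a transcription factor that cDC1 need, is on the list of general dendritic markers. It was detected in 9 of 9 at 249 CPM, close to the 217 CPM of other cDC1 and above the 79.3 of cDC2. The rest of that list was below other cDC1, from H2-DMb2 (88.3 against 89.9 CPM) to Jaml (26.0 against 251 CPM). Of the 10 listed cDC2 markers, Cd209a, Mgl2, Clec10a, Cd7 and Ltb4r1 were at 0 in all 9 cells. Tmem176a was detected in 3 of 9, at 125 CPM against 12.1 in other cDC1 and 524 in cDC2. Tmem176b, Irf4 and Sirpa were detected in 2 of 9 each, at 77.9, 36.4 and 20.8 CPM, above other cDC1 (14.5, 0.603 and 7.84) and below cDC2 (682, 94.0 and 114). These levels are a description, since the gate used the markers.

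Markers of other cell types were low in these cells, except 1 gene. Summed T cell markers were at 0 in both libraries and B cell markers at 13.8 and 19.4 CPM, against 36.7 and 47.9 in the other dendritic cells. Monocyte and macrophage markers were at 13.8 and 0 CPM, against 531 and 664. Sinusoidal endothelial markers were higher, at 551 and 2094 CPM against 136 and 281. Dnase1l3, a secreted DNase, gave 38 of the 40 UMIs in PV replicate 2 and 108 of the 108 in CV replicate 1, and 2 and 1 of the 10 markers were detected. Dnase1l3 was named after its values were seen, and whether it bears on the other changes was not tested.

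In T cells, Ccr7 and Socs2 were found in different cells. Of 64 T cells with Ccr7, 1 held Socs2 (1.56%), against 49.3% of the 668 others. By library, 0 of 6, 0 of 23, 1 of 10 and 0 of 25 T cells with Ccr7 held Socs2 in PV replicates 1 and 2 and CV replicates 1 and 2. Among T cells without Ccr7 the share was 51.5%, 50.3%, 43.2% and 51.5%, above the first group in all 4 libraries. Of all 132 dendritic cells, 10 held Ccr7, 9 held Socs2 and 7 held both, a difference from T cells that was not tested. In multi-gene dendritic cells 7 of 8 cells with Ccr7 also held Socs2, but these cells were picked for holding several of the 8 genes.

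**Figure D5:**
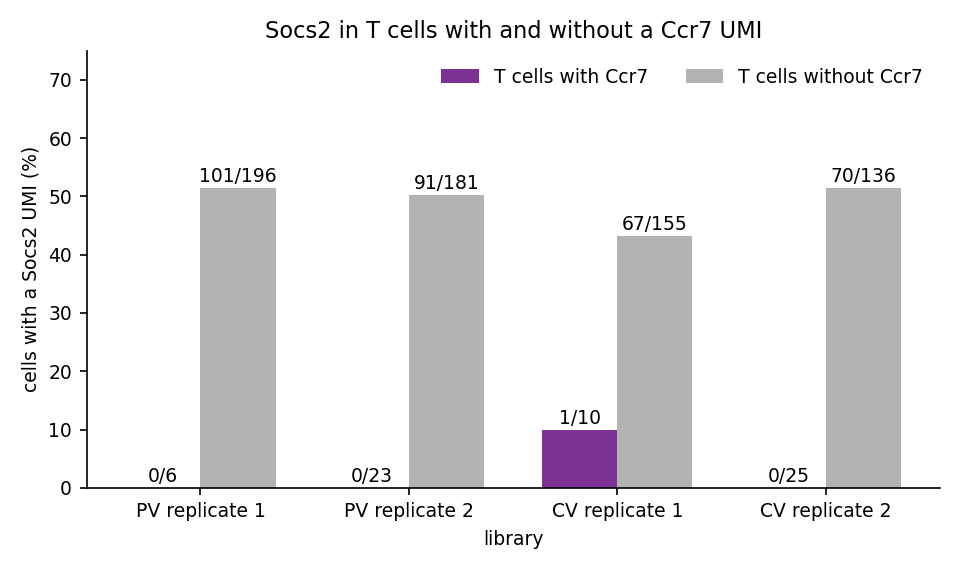
Share of T cells with a Socs2 UMI (y axis, percent) among T cells with and without a Ccr7 UMI, in each library (x axis), with the cell numbers above the bars. The share was 0% in 3 libraries and 10.0% (1 of 10 cells) in CV replicate 1 among cells with Ccr7, and 43.2% to 51.5% among cells without it.

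T cells with and without each gene were compared over all genes on cells thinned to 5000 UMIs, summed per library and state, with the library as a block. Both comparisons were chosen after the separation of Ccr7 and Socs2 was seen, so the values of these 2 genes are a description. Of 3775 genes, 11.2% were called, 4.93% as higher and 6.30% as lower in T cells with Ccr7. Socs2 had 0 UMIs in the T cells with Ccr7 of every library and 131, 118, 91 and 92 UMIs in the rest, and was at least 10.9-fold lower. Ccr7 in turn had 0 UMIs in T cells with Socs2 and 17, 15, 26 and 38 in those without, at least 22.1-fold lower.

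Several genes were far higher in T cells with Ccr7. S1pr1, needed to leave lymph nodes, was higher by 4.14 ± 0.39 and Dapl1 by 4.60 ± 0.35 on the log2 scale. Igfbp4, Actn1 and Il6ra, a receptor chain of interleukin 6, were higher by 4.80, 4.48 and 4.16. Klrb1c, the receptor NK1.1, Gzmb, a cytotoxic protease, and Ccr2 had 0 UMIs in T cells with Ccr7 of all 4 libraries and were at least 20.4-fold, 19.5-fold and 18.8-fold lower. Among 8 tested genes of the SOCS family and of STAT5 targets, 1 was higher and 3 were lower in T cells with Ccr7, with a median log2 difference of -0.67 against -0.14 over all genes tested. Socs1, a relative of Socs2, was lower, at -1.73 ± 0.58 (SE, edgeR adjusted p = 0.0288), and Cish, another relative, was at -2.31 ± 0.92 (edgeR adjusted p = 0.0870).

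T cells with Socs2 differed less from those without. Of 4246 genes, 1.51% were called, 0.353% as higher and 1.15% as lower. Tcrg-C2, a gamma chain gene of the T cell receptor, Rgs1 and Bcl2, a survival gene, were higher by 1.01 ± 0.20, 0.60 ± 0.11 and 0.55 ± 0.10 on the log2 scale. Dapl1 had 0 UMIs in them and was at least 37.6-fold lower, and Tcf7 and Lef1, transcription factors of naive and memory T cells, fell by 1.12 and 0.88. Without PV replicate 1 the 64 calls fell to 10, and without PV replicate 2 to 26. Emb, a surface protein gene, fell by 1.16 and passed without each library in turn, but not on unthinned cells, at -0.74. Rgs1 did not pass on unthinned cells either, at 0.21. Tcrg-C2, Rgs1 and Bcl2 no longer passed without PV replicate 1, at 0.88, 0.55 and 0.53, nor Tcf7 and Lef1 without PV replicate 2, at -0.95 and -0.91. Without CV replicate 2, Tcrg-C2, Tcf7 and Lef1 did not pass, at 0.89, -0.90 and -0.71.

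Between the zones, none of the members passed a test, and 0% of genes were called in all cells, dendritic cells, T cells or B cells. In the all-cell sums, 0 of 10502 genes passed in edgeR, 230 had an unadjusted p under 0.05 and DESeq2 called 9. The sum of the 8 genes was at 367 and 248 CPM in PV replicates 1 and 2 and at 247 and 136 CPM in CV replicates 1 and 2. In PV replicate 1, the first multi-gene cell alone held 599 UMIs of the 8 genes. These included 418 of the 431 Ccl22 UMIs of that library, so the sum there rests in large part on 1 cell. In such sums, fewer cells of a type and less RNA per cell cannot be told apart. Shares of multi-gene cells among all cells, 0.601% and 0.977% against 0.806% and 0%, overlapped between the zones. The difference was 0.385 percentage points (exact permutation test, two-sided, p = 0.667, where 2 against 2 libraries allow 0.333 at the least). Among dendritic cells it was -2.08 percentage points (p = 1, exact permutation test).

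In the all-cell sums, 7 members were tested for zone, and Ccl17 and Il4i1 did not overlap between the zones, as was the case for 26.0% of all genes. Ccl17 stood at 4.01 and 28.3 CPM around the portal vein, against 1.25 and 1.5 CPM around the central vein, a log2 difference (PV minus CV) of 3.53 ± 1.04 (SE, edgeR adjusted p = 0.9999). Of the 115 UMIs in PV replicate 2, 100 came from 1 cell. Il4i1 was at 25.2 and 19.4 against 15.8 and 3.76 CPM, a difference of 1.23 ± 0.61. A single cell gave 52 of the 69 Il4i1 UMIs of PV replicate 1, and another gave 33 of the 79 of PV replicate 2. The differences of Ccr7, Socs2, Fscn1, Cacnb3 and Ccl22 were 0.01 ± 0.40, 0.04 ± 0.22, 0.27 ± 1.22, 0.46 ± 0.85 and 2.03 ± 1.51. With no filter on low counts, 151 of 18264 genes were called. Ccl17, Ccl22 and Il4i1 were among them, with edgeR adjusted p of 2.69e-09, 1.65e-11 and 0.0499. Of the 538 Ccl22 UMIs in the PV libraries, 418 lay in 1 cell. Without PV replicate 1, the Ccl17 difference was 4.26.

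In dendritic cells, 0 of 5373 genes passed in edgeR (370 with an unadjusted p under 0.05, and 4 in DESeq2). The zone differences of the 6 members tested ran from -0.81 ± 0.92 for Fscn1 to 1.03 ± 1.14 for Ccr7. All 6 overlapped between the zones, whereas 36.8% of genes did not. Apol7c, which did not pass the filter, had UMIs in both PV libraries and 0 in both CV libraries. The Ccr7 difference was 1.80 without PV replicate 1 and -0.58 without PV replicate 2. With no filter on low counts Ccr7 passed (1.06 ± 0.30), where 138 of 13481 genes were called. Of the 227 Ccr7 UMIs in dendritic cells of PV replicate 2, 3 lay outside the multi-gene cells. In T cells, 217 of 7939 genes had an unadjusted p under 0.05, and 0 passed in edgeR and in DESeq2. There Ccr7 was lower in both PV libraries (17.0 and 29.6 CPM) than in both CV libraries (37.8 and 61.3 CPM), a difference of -1.14 ± 0.35 (SE, edgeR adjusted p = 0.999), and 30.3% of genes did not overlap between the zones in T cells. Socs2 was at 153 and 152 against 145 and 147 CPM, a difference of 0.01 ± 0.15 without overlap. In B cells, Ccr7, the 1 member tested, overlapped between the zones, at -0.29 ± 0.37, whereas 31.3% of genes did not.

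Over 27 sums of a class in a library (10 classes, at least 10 cells each), the genes most like each member on log2(CPM + 10) were taken as a description. Points of a class share its cells, and points of a library its depth. The summed level of the 8 genes was most like Ahcy (Pearson r = 0.80), Zfp398 (0.76), Vars (0.75), Rps21 (0.75) and Sinhcaf (0.75), and its correlation with Ccr7 alone was 0.80. The nearest genes of each single member were looked up after the data were seen. Ccl22 was most like Aldh1a2, which makes retinoic acid (Pearson r = 0.97), and Cacnb3 most like Il12b (0.95). For Socs2 it was Socs1 of the same family (0.91), for Ccr7 the class II gene H2-Eb2 (0.84), and for Fscn1 Vwf (0.86). Il4i1 was most like Ryr1 (0.78), Ccl17 most like Arc (0.89) and Apol7c most like Cavin3 (0.97). The values of Ccl22, Ccl17 and Apol7c rest on members whose UMIs lay mostly in 1 cell, 64.1% of them for Ccl22. That of Fscn1 includes a sum of 12 sinusoidal endothelial cells with 2 Fscn1 UMIs, under the floor of 3 counts.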

How the data were processed

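Single CD45+ cells were measured with the 10x Genomics 3′ kit, version 3.1, per the labels' protocols, and the authors deposited matrices of raw UMI counts made with Cell Ranger 4.0.0 on mm10, per the submitters' processing notes. The annotation version is not given in the sources used here. Barcodes with at least 200 genes and at most 10% mitochondrial UMIs were kept, each only in the library with at least 70% of its UMIs. A class needed UMIs of at least 3 of its markers and a lead of at least 2 over other classes. Within dendritic cells the cDC1 label did not need 3 cDC1 markers. The second cell of PV replicate 2 got it with 2 cDC1, 4 general dendritic and 0 cDC2 markers. Doublets were called with Scrublet in scanpy 1.11.5 (expected rate 3%), which marked 12 of 1593 cells, and were kept. Counts were summed per library and class or state and tested with edgeR 4.0.16 (quasi-likelihood, TMM, filterByExpr, Benjamini-Hochberg). DESeq2 1.42.0 was an alternative. The test of multi-gene cells left the members out, also of the library totals behind its CPM. Shares by class were also taken on cells thinned to 2500 UMIs and T cell states on cells thinned to 5000, with 44, 53, 46 and 34 shallower T cells left out per library. Intervals and floors (3 counts) cover counting error only. On simulated counts, 8-fold changes were recovered for 98.6% of genes between zones in all cells (10205 genes), 91.5% in multi-gene dendritic cells (2118 genes), and 98% and 100% for T cells with Ccr7 (3424 genes) and Socs2 (4005 genes); for 2-fold changes these were 9.23%, 17%, 20.9% and 77.1%. Named genes were the members, the smallest p of each list (up to 10 for mature dendritic cell genes, otherwise 4), the 10 largest changes each way that went the same way in every library, leaving out unnamed gene models, and the genes most like the members. The members and lists were chosen with earlier results of these data known. The comparisons of T cells, and the zone tests in T and B cells, were added after the data were seen. Alternatives were no filter on low counts, other cell limits, doublets left out, shared barcodes kept, other limits on the number of genes, thinning, and leaving out each library.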

Additional observations from a re-analysis of the deposited data

Results flagged for a closer look

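The barcodes that were left out still held UMIs of the 8 genes, a signal in data that no main comparison used. There were 65 such UMIs in PV replicate 1, 62 in PV replicate 2, 72 in CV replicate 1 and 109 in CV replicate 2. Copies of the multi-gene cells' barcodes gave 40, 44, 56 and 92 of these UMIs. Of the left-out barcodes, 5, 1, 3 and 4 held at least 3 of the genes, all of them such copies. The alternative with shared barcodes kept took in part of the left-out barcodes. It counted 7, 6, 6 and 4 cells with at least 3 of the genes in the same order of libraries.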

How the results depend on the processing

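Over 886 alternatives of 101 results on named genes, 780 kept direction and side of the threshold, 75 no longer passed, 6 newly passed and 25 changed direction; the causes were not tested. Genes called for zone numbered 9 in DESeq2 and 151 with no filter in all cells, 4 and 138 in dendritic cells, and 1 and 1 in B cells, where shared barcodes kept also gave 1. Without each library in turn they ranged from 0 to 229, 0 to 154 and 2 to 15, and from 0 to 1 in T cells. PV replicate 1 moved these to 21, 154, 4 and 1 when left out, and PV replicate 2 to 229, 30, 15 and 0; in B cells CV replicates 1 and 2 gave 2 and 5. In multi-gene cells, 120 genes were called in DESeq2, which moved the median of all genes by -0.12, 339 with at least 2 genes per cell and 133 on thinned cells; of these, 119, 276 and 110 were among the 576. Stricter cell limits or leaving out a library left no test there. For cDC1 against cDC2 the count was 470 with no filter and 60 to 372 without each library, the 60 without PV replicate 2. For T cells with Socs2 it was 136 with no filter, 36 unthinned and 10 to 74 without each library; for T cells with Ccr7 it was 302 to 417. Shares of multi-gene cells differed between zones by 0.959 points of all cells with at least 2 genes per cell, and by -0.0179 to 0.789 without each library. Of dendritic cells they differed by 4.24 with at least 2 genes, 0.95 with shared barcodes kept, 0.278 under stricter limits and -10.4 to 6.26 without each library.

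Zone differences (log2) that changed direction were those of Ccr7 in all cells (-0.000267 with shared barcodes kept) and Cacnb3 in dendritic cells (0.37 under stricter limits). Pim1 in multi-gene cells was at 0.28 with at least 2 genes, 0.30 thinned, and, in alternatives added after the data were seen, 0.25 with libraries of 2 cells and 0.47 against other cDC1. Without each library in turn, all-cell values ranged from -0.67 to 0.44 for Ccr7, -0.74 to 5.18 for Fscn1, -0.24 to 0.26 for Socs2 and -0.43 to 2.65 for Cacnb3. In dendritic cells they ranged from -0.58 to 9.88 for Ccr7, -1.75 to 3.93 for Fscn1, -0.40 to 10.62 for Ccl22, -0.21 to 4.42 for Il4i1, -0.76 to 7.24 for Socs2 and -1.13 to 6.78 for Cacnb3. Socs2 in T cells ranged from -0.0148 to 0.0383 and Ccr7 in B cells from -0.85 to 0.27.

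Replicate numbers were not taken as pairs (correlation of same-numbered libraries -0.026 in all cells). With 2 libraries of each zone, this value cannot settle whether same-numbered libraries belong together. With replicate numbers as a block, 0 genes were called for zone in all cells, dendritic cells and B cells and 1 in T cells. Ccr7 in all cells was then at -0.0668.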
